A study of Mus musculus with 29 samples.

Results

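Chemokine ligand genes encode small secreted proteins that guide the movement of leukocytes. The 9 genes described here are Ccl2, Ccl12, Ccl5, Ccl3, Ccl4, Cxcl16, Cxcl9, Cxcl10 and Cxcl2, out of 21938 protein-coding genes of the annotation (GENCODE vM21 on mouse build GRCm38, also called mm10). They were chosen by name. For each gene, the deposited regions of all 25 peak lists that overlapped the gene body or the 20 kb on either side of it (its window) were collected, and each region was counted once even where the list repeated it for several summits. The windows of Ccl3 and Ccl4 overlap, as do those of Cxcl9 and Cxcl10, so regions between such neighbours belong to both genes and are listed once in totals.

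CC and CXC chemokines bind receptors on the surface of target cells and steer them along a concentration gradient. In the brain they are produced by activated microglia, astrocytes and endothelial cells, and they draw monocytes, T cells and neutrophils to sites of infection or injury. Their transcription is classically switched on by NF-kappa-B after inflammatory signals and, for the interferon-type ligands, by interferon regulatory factors. IRF8 is a member of that family that is needed for the development of microglia and many macrophages, and it often binds DNA together with the ETS factor PU.1. Acetylation of histone H3 at lysine 27 (H3K27ac) is usual at active promoters and enhancers, and monomethylation at lysine 4 (H3K4me1) marks enhancers whether active or not.

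CUT&RUN, in which an antibody tethers a nuclease to a chromatin protein so that the DNA around it is released and sequenced, was applied to sorted cells of female mice. IRF8 was mapped through a GFP antibody in IRF8-EGFP mice, in 4 libraries of P9 and 3 of P14 microglia (P for postnatal day), in 3 of adult microglia and in 3 of peritoneal macrophages. PU.1, H3K27ac and H3K4me1 were mapped in adult microglia of the WT and IRF8KO (KO) strains, with 2 libraries for each target and genotype. WT and IRF8KO brains were taken at 3 months of age, while no separate age is given for adult IRF8-EGFP mice or the macrophage donors. Cells for transcription factors were fixed in 1% paraformaldehyde, and no other treatment is named. Adult IRF8 and WT or KO libraries thus come from different strains, and the IgG controls came from IRF8-EGFP mice for P9, P14 and macrophages but from WT mice for adults. For the macrophage libraries the source label reads microglia; their titles were used. The labels do not say which libraries share an animal, so spread between libraries may be technical. Regions of a group were merged, and those supported by 2 or more of its libraries are called consensus regions below.

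The sequences in this paragraph show what lies under the IRF8 regions on which the results turn: those at Ccl12, Ccl2 and Cxcl16 that were in all 3 adult libraries and overlapped a WT PU.1 consensus region, and 5 more chosen after their values were seen, namely 2 at Cxcl10, 2 at Ccl5 (the nearer one has the highest mean percentile in the adult lists of the elements found in all 3) and the macrophage region of Cxcl2. Each is 300 bases of the plus strand of GRCm38.p6, read 5′ to 3′ and centred on the median summit of the adult libraries (for the second Cxcl10 region and for Cxcl2, held by 2 libraries of the group, on the summit of the stronger adult or macrophage library). Capitals mark matches, on either strand, to GGAANNGAA (the composite ETS-IRF site), GAAANNGAA (interferon-response-like), GGAAGT (the ETS core) and the NF-kappa-B consensus; matches may overlap.
Ccl12 promoter, chr11:82101309-82101608: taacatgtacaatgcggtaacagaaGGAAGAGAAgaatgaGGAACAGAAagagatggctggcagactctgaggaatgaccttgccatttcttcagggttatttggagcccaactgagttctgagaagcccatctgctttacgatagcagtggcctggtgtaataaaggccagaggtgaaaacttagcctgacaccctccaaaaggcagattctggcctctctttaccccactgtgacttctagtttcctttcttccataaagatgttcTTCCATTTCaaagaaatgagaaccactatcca
Ccl2 upstream, chr11:82022845-82023144: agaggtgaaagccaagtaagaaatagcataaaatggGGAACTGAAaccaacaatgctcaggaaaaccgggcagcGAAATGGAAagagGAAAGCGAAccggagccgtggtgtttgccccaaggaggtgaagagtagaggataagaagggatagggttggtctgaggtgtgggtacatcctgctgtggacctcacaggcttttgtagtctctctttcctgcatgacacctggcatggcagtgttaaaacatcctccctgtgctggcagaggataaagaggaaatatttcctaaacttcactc
Cxcl16 downstream, chr11:70446842-70447141: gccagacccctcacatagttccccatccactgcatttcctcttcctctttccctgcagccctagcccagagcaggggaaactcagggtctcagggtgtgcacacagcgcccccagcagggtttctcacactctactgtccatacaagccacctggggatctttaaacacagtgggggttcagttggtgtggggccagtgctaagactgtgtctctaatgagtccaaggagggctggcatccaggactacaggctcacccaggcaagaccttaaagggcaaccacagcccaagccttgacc
Cxcl10 upstream, chr5:92353502-92353801: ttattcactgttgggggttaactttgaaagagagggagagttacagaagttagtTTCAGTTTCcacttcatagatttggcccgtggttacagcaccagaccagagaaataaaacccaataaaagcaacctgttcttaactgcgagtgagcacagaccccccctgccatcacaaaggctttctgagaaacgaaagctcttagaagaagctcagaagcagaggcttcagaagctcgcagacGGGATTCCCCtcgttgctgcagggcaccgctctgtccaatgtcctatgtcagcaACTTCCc
Cxcl10 promoter, chr5:92348969-92349268: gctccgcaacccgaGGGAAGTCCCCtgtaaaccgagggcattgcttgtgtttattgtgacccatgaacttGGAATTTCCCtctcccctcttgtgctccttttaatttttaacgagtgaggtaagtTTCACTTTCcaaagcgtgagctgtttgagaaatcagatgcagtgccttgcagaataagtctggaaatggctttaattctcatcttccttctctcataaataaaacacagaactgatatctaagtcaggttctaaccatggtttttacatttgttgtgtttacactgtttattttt
Ccl5 near upstream, chr11:83533121-83533420: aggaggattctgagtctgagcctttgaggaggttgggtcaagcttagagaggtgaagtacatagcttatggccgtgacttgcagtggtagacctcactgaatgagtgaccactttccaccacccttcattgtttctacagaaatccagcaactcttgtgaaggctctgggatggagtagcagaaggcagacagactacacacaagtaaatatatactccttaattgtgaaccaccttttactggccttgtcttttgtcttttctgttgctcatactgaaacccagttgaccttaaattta
Ccl5 far upstream, chr11:83544491-83544790: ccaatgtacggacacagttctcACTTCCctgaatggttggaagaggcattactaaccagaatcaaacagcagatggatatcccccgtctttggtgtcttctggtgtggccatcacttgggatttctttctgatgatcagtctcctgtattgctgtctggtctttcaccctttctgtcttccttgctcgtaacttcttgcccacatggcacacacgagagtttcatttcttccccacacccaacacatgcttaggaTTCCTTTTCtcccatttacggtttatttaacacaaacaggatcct
Cxcl2 macrophage region, chr5:90897589-90897888: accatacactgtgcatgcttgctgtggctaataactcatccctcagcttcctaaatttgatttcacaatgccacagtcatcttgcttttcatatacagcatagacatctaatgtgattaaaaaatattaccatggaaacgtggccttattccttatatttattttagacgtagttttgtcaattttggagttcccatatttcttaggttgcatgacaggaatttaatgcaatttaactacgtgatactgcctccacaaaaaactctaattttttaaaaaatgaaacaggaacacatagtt

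The Ccl12 promoter window held 2 composite sites, GGAAGAGAA and GGAACAGAA, and 1 interferon-response-like site, TTCCATTTC on the plus strand. The Ccl2 window held the composite site GGAACTGAA and the interferon-response-like sites GAAATGGAA and GAAAGCGAA. At Cxcl10 the upstream window held the interferon-response-like site TTCAGTTTC, which lay within 150 bp of 8 of the 9 library summits of that region, and an NF-kappa-B match, GGGATTCCCC. Just upstream of the Cxcl10 start, TTCACTTTC stood beside 3 NF-kappa-B matches, of which GGGAAGTCCC and GGAAGTCCCC overlap. The far Ccl5 window held TTCCTTTTC. The windows of the near Ccl5 element, of Cxcl16 and of Cxcl2 held no match to any of the 4 motifs. Over all 22 adult IRF8 consensus regions at the 9 genes, the same 300-base window held the composite site in 6, the interferon-response-like site in 6, the ETS core in 10 and the NF-kappa-B consensus in 5. Of all 16934 adult IRF8 consensus regions of the genome, 16.5% held the composite site, 12.6% the interferon-response-like site, 38.2% the ETS core and 6.83% the NF-kappa-B consensus. These shares depended on the distance from the summit: within 49 bp of the strongest summit 3.61% of the adult regions held a composite site, against 10.3% at 100 to 149 bp. Within 100 bp of the strongest adult summit, by percentile within its list, there was no match for the Ccl12, Ccl2 and Cxcl16 regions. For Ccl2 that summit was of replicate 3, while the summits of replicates 1 and 2 lay within 100 bp of GAAATGGAA and GAAAGCGAA. Within 100 bp of the region centres, a composite site lay in 3 of the 22 and in 10.8% of all. The NF-kappa-B consensus was in 0 of the 22 (4.3% of all) within 100 bp of the centres and in 2 of the 22 (4.54% of all) within 100 bp of the strongest summits.

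IRF8 regions were listed at 8 of the 9 genes in adult microglia, and almost none were listed at P9. Counting each region once over the 9 windows, the P9 libraries held 1, 1, 1 and 0 IRF8 regions, the P14 libraries 15, 25 and 11, the adult libraries 20, 35 and 19, and the macrophage libraries 26, 21 and 6. The P9 values lie below all others, P14 and adult values overlap, and macrophage replicate 3 stands below its group. A consensus region was present at 1 gene at P9 (7.00% of all genes), 5 at P14 (32.0% of all genes), 8 in adult microglia (50.6%) and 7 in peritoneal macrophages (39.9%). The P9 gene was Ccl12. Without P9 replicate 1 or 3 the P9 count was 0, without adult replicate 2 the adult count was 5, and without macrophage replicate 1 or 2 the macrophage count was 4. Cxcl2 was the adult exception, and Cxcl9 and Ccl4 had no macrophage consensus region. The number of regions in the window rose over P9, P14 and adult for all 8 genes that had any microglial region (exact Jonckheere-Terpstra test, two-sided, with adjusted p from 0.0156 for Ccl4 to 0.0343 for Cxcl9), while 46.0% of the 16472 genes tested rose. Cxcl2 had no IRF8 region at these stages and was not tested.

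**Figure D1:**
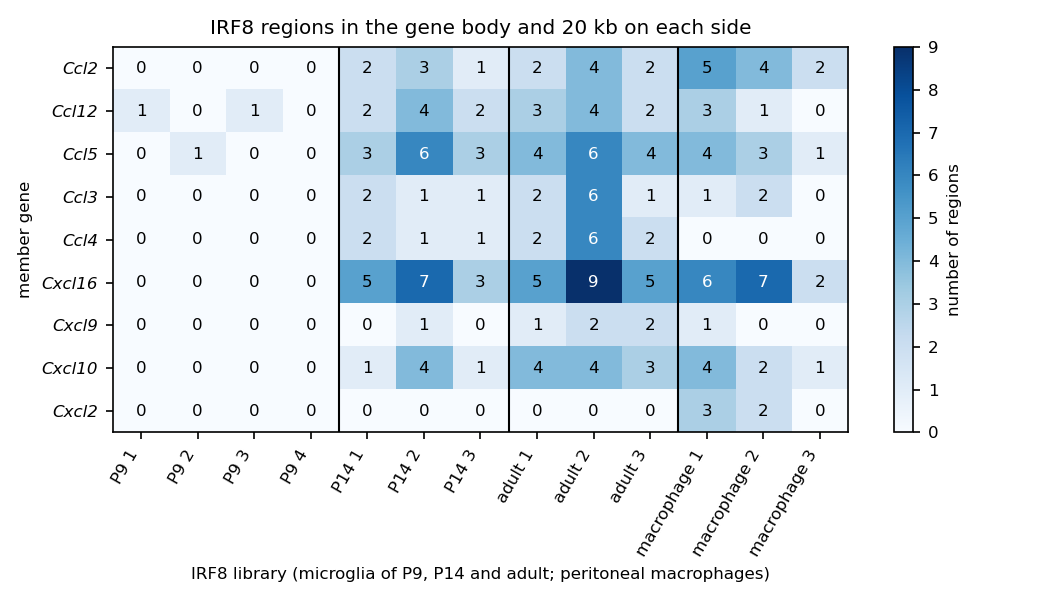
Number of IRF8 regions (cell colour and figure) in the gene body and 20 kb on each side, for the 9 genes (vertical axis) in the 13 IRF8 libraries (horizontal axis, black lines between groups). P9 cells hold 0 or 1, the highest count is 9 for Cxcl16 in adult replicate 2, and Cxcl2 has counts only in macrophage replicates 1 and 2.

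The rise went with the length of the lists, which held 1168 to 2068 regions per library at P9, 7931 to 19238 at P14 and 17048 to 29661 in adults. Expressed as a share of each library's list, none of the 8 genes rose (adjusted p from 0.0815 for Cxcl10 to 0.86 for Ccl5), and the Ccl12 statistic of 12, on a scale up to 33, lay on the side of a lower share at later stages with an adjusted p of 0.479. With every IRF8 list reduced to its 1168 strongest regions, the P14 and macrophage groups had a consensus region at 2 genes each, the P9 and adult groups at 0. The count of rising genes fell to 2 of 8 without any 1 of the P9 libraries and to 3 without adult replicate 2. Stage, list length and control library cannot be told apart here, nor can fewer cells with a bound site and less binding per cell. The adult and macrophage groups each hold a second batch (replicate 3 of both); in batch 1 alone, 8 genes had an adult and 7 a macrophage consensus region.

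Merged over the 13 IRF8 lists, the windows held 48 elements, of which 32 were in at least 2 libraries and 16 in a single library. In all 3 adult libraries there were 16 elements, in all 3 P14 libraries 9, in all 3 macrophage libraries 7 and in all 4 P9 libraries 0. An element joins every region that overlaps the next, so its libraries need not share a base, and 3 elements reach beyond the windows. Of the 32 elements in at least 2 libraries, 22 had a base covered in all of their libraries. For 14 of the 16 adult elements, 8 of the 9 P14 elements and all 7 macrophage elements, the regions of that group's own libraries shared a base. Of the 48, 6 were centred within 1 kb of a start of the 9 genes, and the median distance of a centre from the nearest of these starts was 8174 bp; starts of other genes were not measured. Between adult microglia and macrophages, 13 of the 48 elements were in at least 2 libraries of both (10.2% of the 67561 elements of the genome), 6 in at least 2 adult and no macrophage library (9.99%), and 4 in at least 2 macrophage and no adult library (5.44%). With 3 against 3 libraries an exact test cannot go below p = 0.1, so these differences were not tested. Fold enrichments given below are the authors' values over the IgG control of the same list; values of different lists are set side by side and do not measure change.

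Ccl2 and Ccl12 attract monocytes through the receptor CCR2, and both lie in the CC cluster of chromosome 11. At Ccl2 (chr11:82035571-82037453, plus strand) the P9 libraries held no IRF8 region, the P14 libraries 2, 3 and 1, the adult libraries 2, 4 and 2 and the macrophage libraries 5, 4 and 2. P14, adult and macrophage counts overlap, and only P9 stands apart. An intergenic element centred 12507 bp upstream (chr11:82021420-82024708) had a region in all 9 libraries of P14, adult and macrophages, with folds of 5, 8.77 and 3.55 at P14, 9.07, 7.24 and 10.1 in adults and 10.4, 11.7 and 4.28 in macrophages. At most 8 of the 9 shared a base: the P14 replicate 3 region lay to one side and overlapped neither that of P14 replicate 1 nor that of macrophage replicate 3. The element carried PU.1 in both WT libraries (folds of 5.43 and 4.83) and in KO replicate 2 alone (5.36). A second element over the start itself (chr11:82034897-82036002, reaching into the first exon) was in 2 P14, 3 adult and 2 macrophage libraries, with adult folds of 6.47, 5.38 and 3.73. Another, 6609 bp downstream of the start in intergenic sequence (chr11:82041721-82042639), was in all 3 macrophage libraries, with folds of 6.89, 5.78 and 2.76, and in no microglial one.

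Ccl12 (chr11:82101845-82103400, plus strand) was the only one of the 9 genes with an IRF8 consensus region at P9. The P9 libraries held 1, 0, 1 and 0 regions, the P14 libraries 2, 4 and 2, the adult libraries 3, 4 and 2 and the macrophage libraries 3, 1 and 0. All P9 regions and the strongest P14 regions of the gene fell on 1 promoter element, chr11:82100304-82102467, which spans the start. Its folds were 3.81 and 4.62 in P9 replicates 1 and 3, 11, 19.2 and 7.8 at P14, 6.95, 7.27 and 10.1 in adults and 6.49 in macrophage replicate 1, with none in the other macrophage libraries. Within its own list it stood at the 99th percentile by −log10 p in P14 replicate 2 and at the 98.2 percentile in adult replicate 3. PU.1 covered it in both WT libraries (folds of 3.89 and 5.59) and in KO replicate 2 (4.59). Farther upstream, an intergenic element centred 13886 bp from the start (chr11:82086970-82088949) was in all P14 and adult libraries, with adult folds of 6.22, 5.78 and 4.1, and in 2 macrophage libraries.

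Ccl5, which draws T cells and monocytes, had the element with the highest mean percentile among those found in all 3 adult lists. The gene (chr11:83525778-83530518, minus strand) held 0, 1, 0 and 0 IRF8 regions at P9, 3, 6 and 3 at P14, 4, 6 and 4 in adults and 4, 3 and 1 in macrophages. Every region but 1 of P14 replicate 1 lay upstream, and none overlapped the gene body. The element centred 3379 bp upstream (chr11:83532546-83535248, intergenic) was in all 9 libraries past P9, with folds of 9.16, 12.6 and 7.9 at P14, 14.5, 12.1 and 8.96 in adults and 18.6, 15.6 and 5.91 in macrophages. Its mean percentile within the adult lists was 93.8, against 89.9 for the Ccl12 promoter. It stood higher than that promoter in adult replicates 1 and 2 (94.5 and 95.8 against 77.9 and 93.5) and lower in replicate 3 (91 against 98.2). No motif match lay in the 300 bases around its median adult summit. An element 13885 bp upstream (chr11:83543574-83545233), whose sequence is printed above, was in 1 P9 library with a fold of 3.93, in 2 P14 libraries, in all adult libraries (9.83, 12.1 and 5.47) and in 2 macrophage libraries. An element 5966 bp upstream (chr11:83536100-83536869) was in all 3 adult libraries with low folds of 4.92, 3.67 and 3.67, in P14 replicate 2 and in no macrophage library.

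**Figure D2:**
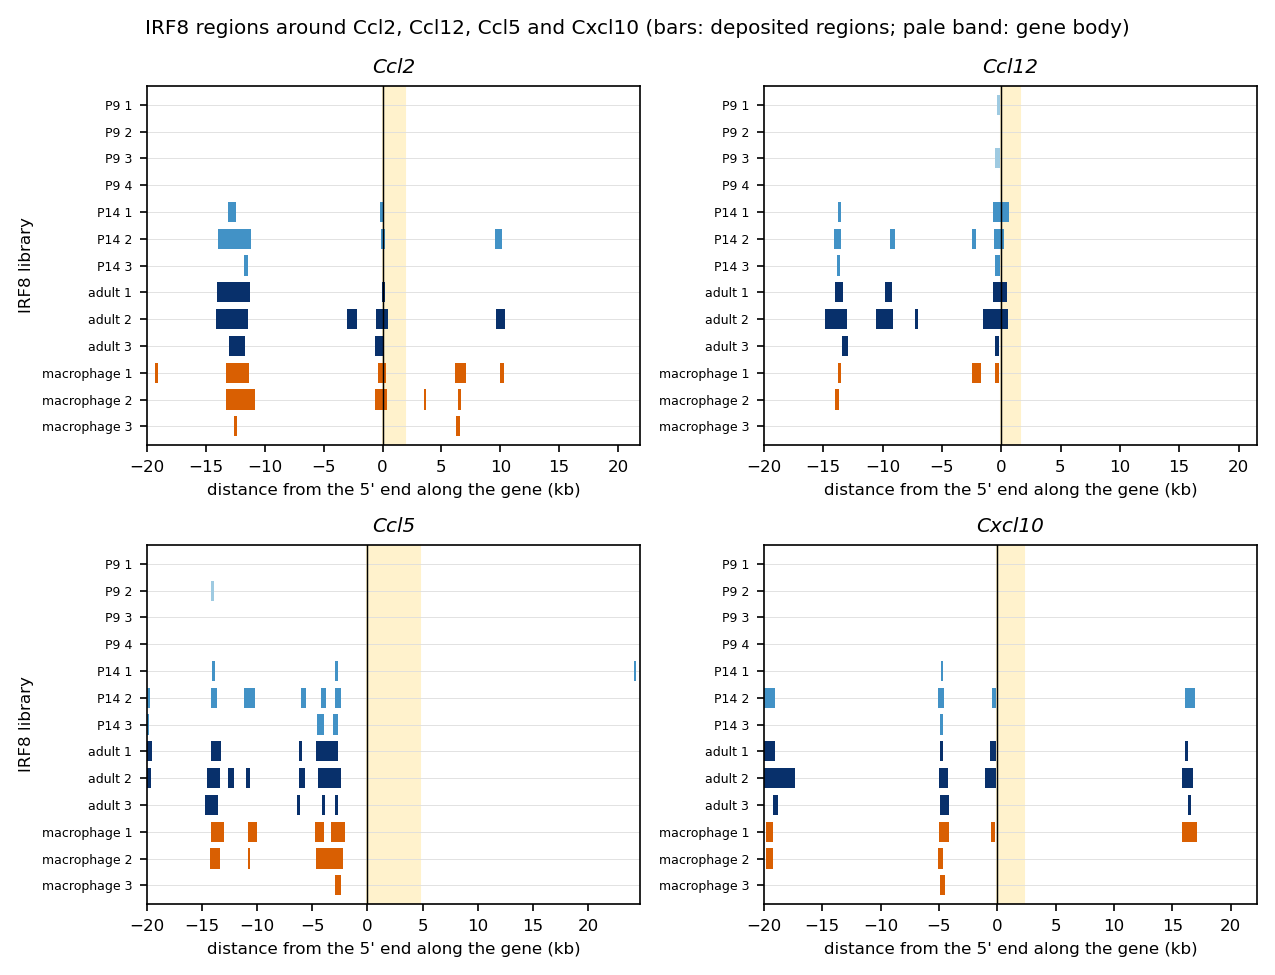
IRF8 regions (bars) around Ccl2, Ccl12, Ccl5 and Cxcl10 in the 13 IRF8 libraries (rows, coloured by group) against distance from the 5′ end along the gene in kb; the pale band is the gene body. Bars recur at the same places in P14, adult and macrophage rows, the Ccl12 start carries bars in 2 P9 rows, and the bars 6609 bp downstream of the Ccl2 start occur in macrophage rows only.

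Ccl3 and Ccl4, whose transcripts microglia make quickly on activation, had scattered IRF8 regions. Both genes held 0 regions in every P9 library and the same 2, 1 and 1 at P14; in adults Ccl3 held 2, 6 and 1 and Ccl4 2, 6 and 2, while macrophages held 1, 2 and 0 at Ccl3 and 0, 0 and 0 at Ccl4. Adult replicate 2, the deepest adult library, thus stood above the others at both genes. None of their elements was in every library of a group. The intergenic element 6508 bp upstream of the Ccl3 start had folds of 5.03 and 10 in adult replicates 1 and 2, and the one 3823 bp upstream of the Ccl4 start had 5.87 and 4.69 in adult replicates 2 and 3. The Ccl3 start itself was covered in P14 replicate 3 and adult replicate 2 only, with folds of 3.51 and 3.1. In macrophages the consensus region of Ccl3 lay 18216 bp downstream of its start, with folds of 9.83 and 6.57 in replicates 1 and 2, and no adult library listed it.

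Cxcl16, made both as a membrane-bound scavenger receptor and as a soluble ligand of CXCR6, had the most IRF8 regions of the 9 genes. Its window (gene at chr11:70453983-70459984, minus strand) also holds Arrb2, Med11 and Zmynd15, to which these regions may belong as well. The libraries held 0 regions at P9, 5, 7 and 3 at P14, 5, 9 and 5 in adults and 6, 7 and 2 in macrophages. There were 6 elements with a region in all 3 adult libraries: chr11:70432178-70434722 in Arrb2, which reached past the edge of the window and lay inside it in only 1 adult, 0 P14 and 1 macrophage library, the intergenic chr11:70441297-70442827 and chr11:70446476-70448078, chr11:70451166-70454390 across the ends of Cxcl16 and Med11, chr11:70459135-70460232 at the Cxcl16 start, and chr11:70466249-70468244 7262 bp upstream. The one at the gene's end, 7206 bp from the start, had a region in all 9 libraries past P9, of which 8 shared a base. The adult folds were 7.99, 7.49 and 8.23 and the macrophage ones 10.9, 10.7 and 4.2, but the region of adult replicate 3 did not overlap that of adult replicate 1 and was joined to it by the wide region of replicate 2. The one at the start had adult folds of 7.26, 6.84 and 5.28 and was in 1 P14 and 2 macrophage libraries. PU.1 covered the Arrb2 element in both WT (11.5 and 6.55) and both KO libraries (14.9 and 15.7), and the printed element 12707 bp downstream of the start in WT (7.03 and 10.3) and KO (13.2 and 5.36). At the Arrb2 element, the PU.1 region reached into the window in WT replicate 1 and KO replicate 2 only. A further PU.1 region at the gene's end (chr11:70453154-70453997) was in both KO libraries, with folds of 9.14 and 13.4, and in WT replicate 1 with 5.01.

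Cxcl9 and Cxcl10 are the interferon-induced ligands of CXCR3 on T cells, and their 2 windows share sequence within Art3. Cxcl9 (chr5:92321347-92328079, minus strand) held 0 IRF8 regions at P9, 0, 1 and 0 at P14, 1, 2 and 2 in adults and 1, 0 and 0 in macrophages. Its element in all adult libraries lay 4341 bp upstream (chr5:92331761-92333080, over an Art3 exon), with folds of 6.74, 5.38 and 5.28, but no base of it was covered in more than 2 of the 3. Cxcl10 (chr5:92346638-92348889, minus strand) held 0 at P9, 1, 4 and 1 at P14, 4, 4 and 3 in adults and 4, 2 and 1 in macrophages, so all groups past P9 overlap. The element 4613 bp upstream in an Art3 intron (chr5:92353000-92354005) was in all 9 libraries past P9, with folds of 4.16, 4.34 and 4.1 at P14, 8.82, 8.31 and 7.04 in adults and 13.1, 8.61 and 4.22 in macrophages. A broader one 19872 bp upstream (chr5:92366248-92371275) reached past the edge of the window. It had regions in all P14 and adult libraries, with adult folds of 8.82, 10.8 and 11.1 for the strongest, and in 2 macrophage libraries, but within the window in only 1 of the 3 P14 libraries, and the strongest region of adult replicate 3 lay beyond it, where its in-window region had a fold of 5.86. Just upstream of the Cxcl10 start, the element that holds the NF-kappa-B and interferon-response-like matches (chr5:92348982-92349962) was weak: adult replicates 1 and 2 listed it with folds of 4.67 and 4.15, at the 14.7 and 29.1 percentiles of their lists, and adult replicate 3 did not.

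Cxcl2, a neutrophil attractant that acts on CXCR2, was the gene with IRF8 regions listed in macrophages but not in microglia. None of the 10 microglial IRF8 libraries listed a region in its window (gene at chr5:90903871-90905938, plus strand), and the macrophage libraries held 3, 2 and 0. Both consensus elements lay in intergenic sequence upstream: chr5:90896345-90899234, centred 6082 bp from the start, with folds of 9.83 and 3.69 in replicates 1 and 2, and chr5:90899975-90900807, 3480 bp from the start, with 5.15 and 3.11. At the same place PU.1 was in both KO libraries, with folds of 8.05 and 9.18 (chr5:90897402-90899382), and in neither WT library. H3K27ac covered it in both genotypes, with folds of 5.24 and 5.56 in WT, at the 66 and 65 percentiles of their lists, and of 8.59 and 9.25 in KO, at the 96.5 and 95.4 percentiles. H3K4me1 regions ran over the start in all 4 libraries, and KO alone had a further consensus region 20082 bp upstream (chr5:90881607-90885971, folds of 3.25 and 3.01). The window also holds Cxcl1, a neighbour of like function.

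**Figure D3:**
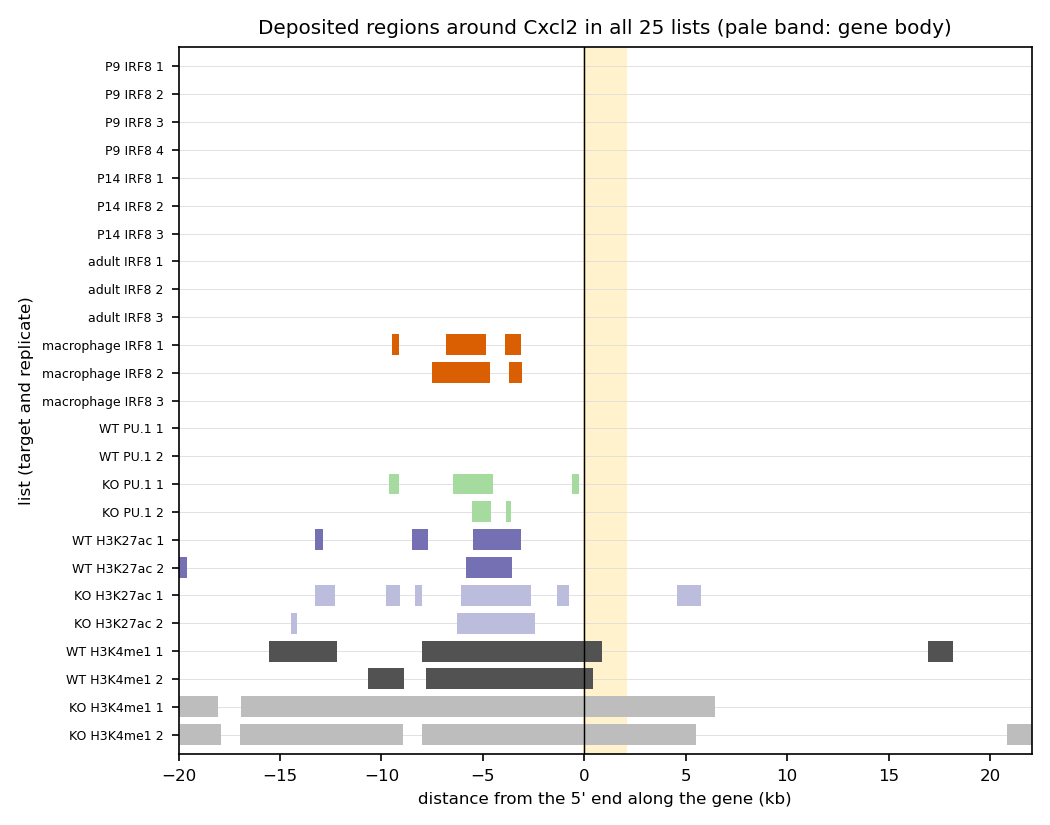
All deposited regions (bars) in the Cxcl2 window for the 25 lists (rows, coloured by target and group) against distance from the 5′ end along the gene in kb; the pale band is the gene body. No microglial IRF8 row has a bar, macrophage replicates 1 and 2 have bars 6082 and 3480 bp upstream, and PU.1 bars occur in the KO rows only.

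Of the 22 adult IRF8 consensus regions at the 9 genes, 13 overlapped a P14 consensus region (43.2% over the genome), 12 a macrophage one (39.5%) and 1 a P9 one (7.76%). PU.1 consensus regions of WT microglia were at 4 of the 22 (27% over the genome), H3K27ac at 17 (81.8%) and H3K4me1 at 21 (91.3%). The PU.1 regions were those of Ccl2, Ccl12 and, with 2, Cxcl16. Cxcl9, Cxcl10, Ccl5, Ccl3 and Ccl4 had adult IRF8 consensus regions and no WT PU.1 consensus region in the window. Among them Cxcl9 and Cxcl10 had no WT PU.1 region in either library, whereas Ccl5 held 3 and 1, Ccl3 2 and 3 and Ccl4 1 and 2. These shares lie near those of all adult IRF8 regions for H3K27ac and H3K4me1.

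Among the 3 targets mapped in both genotypes, H3K27ac had the most regions around the 9 genes that were listed in WT only. Of 30 WT H3K27ac consensus regions, 11 overlapped no region of either KO library (34.0% over the genome), and of 8 KO consensus regions 0 were absent from both WT libraries (10.9% over the genome). The share at these genes is thus near that of the genome. The libraries were unequal: WT replicates held 53 and 50 H3K27ac regions at the 9 genes, KO replicate 1 held 40 and KO replicate 2, with 8.57 M fragments and 31524 regions in its list, held 14. Without KO replicate 2 there were 12 WT regions with no KO overlap and 13 KO regions with no WT overlap; without KO replicate 1 there were 19 and 3. The WT-only number was 7 with all 4 lists reduced to the same length, and 27 or 30 without WT replicate 1 or 2, the other list standing alone. With 2 against 2 libraries an exact test cannot go below p = 0.333, and no test between genotypes was made. Within 1 kb of their starts, 5 of 6 microglia markers had H3K27ac in WT and 2 of 6 in KO, and 1 of 6 peritoneal macrophage markers did in both. By the same measure, markers of other cells had it in WT and not in KO at 2 of 3 for oligodendrocytes (Mbp and Mog), 1 of 3 for endothelium (Pecam1) and 1 of 3 for B cells (Ms4a1). Of all genes, 61.7% had a WT and 30.1% a KO H3K27ac consensus region in the gene body and 20 kb on each side. The share of all genes within 1 kb of the start was not counted. The part of these markers in the counts was not tested.

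The 11 regions fell at 7 of the genes, counting those between neighbours for both, with 3 each at Cxcl10 and Ccl2, and 5 of the 11 overlapped an adult IRF8 consensus region (21.7% of WT-only regions over the genome). Of the 19 shared regions of these genes, 12 did (42.3% over the genome). At Cxcl10 they were the region over the start (chr5:92348530-92349731, WT folds of 3.7 and 5.89), which overlapped the weak IRF8 element there, chr5:92363030-92363620 (4.32 and 6.87), in the transcribed pseudogene Cxcl11, and chr5:92341025-92341943 (4.63 and 3.56), shared with Cxcl9. A region of KO replicate 1 (fold of 3.55) overlapped the far end of the IRF8 element at the Cxcl10 start, but not the WT region. The stronger Cxcl10 region 4847 bp upstream was kept, with folds of 11.5 and 14.4 in WT and 9.3 and 6.71 in KO. At Ccl2 they were chr11:82032403-82033957 (5.02 and 5.65), chr11:82050217-82051242 (5.86 and 4.25) and chr11:82055915-82057045 (4.01 and 3.23), none with an adult IRF8 consensus region. The widest WT region there, over the IRF8 element 12507 bp upstream (chr11:82020991-82024674, 4.42 and 7.08), was overlapped by a region of each KO library (2.81 and 4.21). The KO libraries held 5 and 2 regions in the Ccl2 window, with no consensus region among them. At Ccl12 they were chr11:82087239-82088860 (4.32 and 7.2) and chr11:82090961-82093019 (5.24 and 7.85), both under adult IRF8 consensus regions, while the promoter region was listed in all 4 libraries (4.42 and 7.25 in WT, 4.17 and 3.84 in KO). At Ccl5 it was chr11:83535761-83537326 (7.71 and 6.9), at the IRF8 element 5966 bp upstream. Between Ccl3 and Ccl4 it was chr11:83658555-83660222 (5.55 and 4.58), with adult IRF8, and downstream of Ccl3 chr11:83632007-83633466 (3.08 and 3.42), without. Cxcl16 and Cxcl2 had none.

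Fewer PU.1 and H3K4me1 regions of these genes were listed in 1 genotype only. Of 4 WT PU.1 consensus regions, 0 lacked a KO overlap (25.1% over the genome), and of 5 KO consensus regions 1 lacked a WT overlap (16.5% over the genome), namely the Cxcl2 region described above, which was counted also with all PU.1 lists at a q-value of 0.01. These counts depended on single libraries: WT-only regions numbered 3 and 2 without WT replicates 1 and 2 and 0 and 2 without KO replicates 1 and 2, and KO-only regions numbered 2 without either WT replicate and 6 and 4 without KO replicates 1 and 2. At Ccl2 and Ccl12 the WT PU.1 region was matched in KO replicate 2 only. Of 26 WT H3K4me1 consensus regions, 1 lacked a KO overlap (13.0% over the genome), chr5:92340645-92343744 between Cxcl9 and Cxcl10 (WT folds of 2.83 and 1.9), at the place of a WT-only H3K27ac region. Without WT replicate 2 or KO replicate 2 the count was 2. Of 33 KO consensus regions, 4 lacked a WT overlap (23.8% over the genome), a number that was 7 and 5 without WT replicates 1 and 2 and 10 without either KO replicate. These were the Cxcl2 region given above, the Cxcl16 start (chr11:70458778-70461924, folds of 2.36 and 2.22), the Ccl5 start (chr11:83529118-83531005, 1.93 and 2.29) and a region 19958 bp upstream of Ccl2 (chr11:82014376-82016850, 5.13 and 3.71). Neither start was covered by H3K4me1 in a WT list, and the Cxcl16 one overlapped an IRF8 element of all adult libraries.

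**Figure D4:**
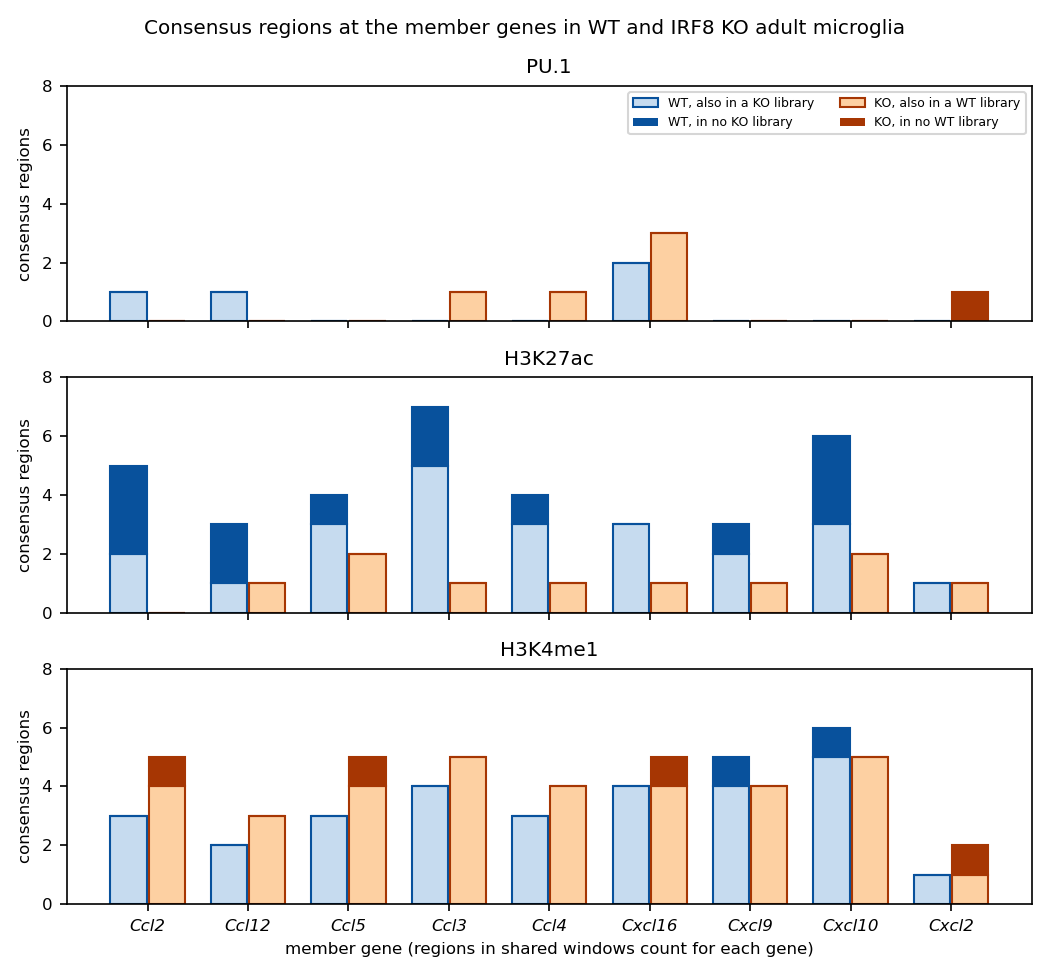
Number of PU.1, H3K27ac and H3K4me1 consensus regions (vertical axes) in the window of each gene (horizontal axis) in WT (blue) and KO (orange) adult microglia; dark parts are regions with no overlap in either library of the other genotype. Dark blue parts are frequent for H3K27ac, with 3 at Ccl2 and 3 at Cxcl10, and the only dark PU.1 bar is the KO one of Cxcl2.

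Other ligand genes were read the same way. Of 28 other chemokine ligands in the annotation, 16 had an IRF8 consensus region in adult microglia (50.6% of all genes), 15 in macrophages (39.9%), 8 at P14 (32.0%) and 3 at P9 (7.00%). Ccl7, Ccl8 and Cxcl1 overlap windows of the 9 genes, and IRF8 regions shared with those windows were left in these counts. By the count of regions 9 of the 22 tested rose over the stages, against 46.0% of all genes tested. At the other ligands 11 of 33 WT H3K27ac consensus regions had no KO overlap (34.0% over the genome). Of these, 6 of the 33 and 3 of the 11 also lay in a window of the 9 genes, such as those shared by Ccl7 and Ccl2, and without them 8 of 27 had no KO overlap. The neighbours of Cxcl2 in the CXC cluster of chromosome 5 had the same order of groups as Cxcl2: Cxcl1 held 3 macrophage and 0 adult consensus regions, Cxcl3 4 and 1, Cxcl5 4 and 1, Pf4 4 and 1, and Cxcl15 2 and 0. Their windows overlap in part, so these counts share regions.

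The profile of each gene over the 25 lists, taken as the percentile of the strongest region in the window within its list (0 where none was listed), was closest by root mean square difference to that of a gene on another chromosome as follows. Cxcl2 was closest to Clca4b (9.37 percentile points), Cxcl9 to Rps12 (9.52), Cxcl10 to Faf1 (11.1) and Cxcl16 to Slc6a16 (11). Ccl2 was closest to Xpo7 (12.1), Ccl12 to Zcchc7 (15.4), Ccl5 to Aff1 (10.2), Ccl3 to Pde8a (15.8) and Ccl4 to 2610528A11Rik (15.2). The values of Ccl3, Ccl4 and Ccl12 are higher than the rest, so no gene elsewhere came as near to them.

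Depth ranged from 13.4 to 20.9 M fragments in P9 IRF8 libraries, 13.9 to 24.4 M at P14, 7.25 to 24.7 M in adults and 15.8 to 21.5 M in macrophages. Of the peritoneal macrophage markers, 6 of 6 had macrophage IRF8 in the window, against 4 of 6 in adult microglia, and 6 of 6 microglia markers had adult IRF8, against 4 of 6 in macrophages; over all genes the shares were 39.9% in macrophages and 50.6% in adults. IRF8 was not limited to markers of these cells: in both groups it was at 3 of 3 B cell, 2 of 3 oligodendrocyte, 2 of 3 endothelial, 1 of 3 astrocyte, 1 of 3 neuronal and 0 of 3 T cell markers, and at 0 of 3 neutrophil markers in adults and 1 of 3 in macrophages. WT H3K27ac lay within 1 kb of the start of 0 of 3 astrocyte, 0 of 3 neuronal, 0 of 3 T cell and 0 of 3 neutrophil markers.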

How the data were processed

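Peak lists of 25 CUT&RUN libraries were used; 4 IgG libraries entered only as controls of the authors' calls. Per the submitters' processing notes, bcl2fastq, Trim Galore, Bowtie2, deepTools and MACS2 and the build mm10 were used. Per the file headers, peaks were called for each library against the IgG of its stage or tissue (PU.1 replicate 2 of both genotypes against another control), at q 0.01 (PU.1 replicate 2 at q 0.05) with gaps up to 640 bp, and H3K4me1 in broad mode at p 0.01 with a minimum length of 1000 bp. Duplicates were kept and the larger data set was scaled to the smaller. The deposited pileup is a coverage signal, the deposited fold is a ratio over the control, and the deposited −log10 p-value and −log10 q-value are the caller's. These values described, ranked or filtered regions within a list only. For P9, 4 of 7 libraries made were provided, and for KO H3K27ac 2 of 3, per the labels.

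Regions of chromosomes 1 to 19, X and Y were assigned to genes by an overlap of at least 1 bp with the gene body and 20 kb on each side. Region numbers over the stages were tested for every protein-coding gene with a microglial region by an exact two-sided Jonckheere-Terpstra test over all 4200 assignments of the 10 libraries, with Benjamini-Hochberg adjustment and a threshold of 0.05; a KO- or WT-only region is a consensus region with no overlap in either library of the other genotype. All 9 genes are named, with elements present in every library of a group and every PU.1 or H3K27ac consensus region of 1 genotype only; printed sequences were to be those in all adult libraries with WT PU.1, at most 1 per gene, 100 bp on each side of the strongest summit. The 300-base windows and 5 further elements were added after seeing the data. The genes and lists were chosen with earlier results of these data known. Replicate numbers mark no shared animal, so no block was used. The trend script was tested on simulated data. Lists of receptors and of transcriptional inducers are not reported here. Alternatives were stronger regions only, other windows, a larger overlap, equal list lengths, other consensus rules and leaving out each library; equal q-values for PU.1 were added after seeing the data. Tools were Python 3.11.15, NumPy 2.4.6, pandas 2.3.3 and SciPy 1.17.1.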

Additional observations from a re-analysis of the deposited data

Results flagged for a closer look

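Among the 4 P9 libraries, the group large enough for a check of single samples, P9 replicate 2 stood apart for Ccl5, with 1 IRF8 region in the window against 0 in each of the others. Counting all 9 genes together, P9 replicate 4 stood apart with 0 regions against 1 in each of the other P9 libraries. Such a gap arises in about 1 in 20 groups by chance, and at counts of 0 and 1 any lone value meets it.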

How the results depend on the processing

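The trend over the stages depended on which regions were counted. Instead of 7582 genes and 8 of the 9 chemokine genes, 1966 and 3 rose with regions of a −log10 p of at least 10 alone, 3519 and 4 with 5 kb beside the gene body, 0 and 0 with lists of equal length, and 74 and 0 on the share of the list; 4582 genes rose with 20 kb around the 5′ end, with the chemokine genes still at 8. On the share of the list the Ccl12 statistic turned from 29.5 to 12. Leaving out 1 library gave 1600 to 7984 genes and 2 to 8 chemokine genes.

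Genes with a consensus region numbered 0 at P9 with strong regions, with equal lists and with all libraries required; 3 at P14 with strong regions and 2 with equal lists; 0 in adults with equal lists; and 2 in macrophages with equal lists and 4 with all libraries required. Leaving out 1 library gave 0 to 1 at P9, 4 to 5 at P14, 5 to 8 in adults and 4 to 7 in macrophages.

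Between the genotypes, counting regions absent from the other consensus gave 2 WT-only and 3 KO-only PU.1 regions, 21 WT-only H3K27ac regions, and 2 WT-only and 9 KO-only H3K4me1 regions. WT-only H3K27ac regions numbered 7 with strong regions, 4 with 5 kb windows and 7 with equal lists; WT-only H3K4me1 regions numbered 0 with strong regions, and KO-only ones 2 with 5 kb windows. Leaving out 1 library, where the other list then stood for its genotype, gave 0 to 3 WT-only and 2 to 6 KO-only PU.1 regions, 12 to 30 WT-only and 0 to 13 KO-only H3K27ac regions, and 1 to 2 WT-only and 5 to 10 KO-only H3K4me1 regions. The 13 KO-only H3K27ac regions came without KO replicate 2. Apart from fewer regions or libraries by construction, the cause was not tested. No paired analysis was possible because the labels name no shared animal, litter or day, the exact test over stages, with 4, 3 and 3 libraries, takes no block, and the comparisons of genotypes and of adult microglia with macrophages, which hold equal numbers, come from no test. Depth limits what a missing region shows: it was not listed at these thresholds, which is not absence of the factor.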
